A study of Mus musculus with 29 samples.

Results

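T cells of the brain were compared with T cells of the blood in young mice at day 14 after experimental stroke. The T cells are those that carry the deposited parent label Tc in the single-cell libraries of this time point: 853 cells in 4 brain libraries (50, 256, 191 and 356) and 2718 cells in 3 blood libraries (1178, 680 and 860). These 3571 cells are part of 29060 cells in the same 7 libraries, and of 9047 T cells among 106977 cells in all 29 libraries of the series. All animals of the comparison were C57BL/6J males of 8 to 10 weeks with stroke by transient middle cerebral artery occlusion, a model in which blood flow to one hemisphere is blocked and then restored. Each brain library came from 4 to 5 pooled ipsilateral hemispheres that were digested with papain, cleaned over Percoll and sorted for CD45high cells, microglia and endothelial cells. Each blood library came from heart blood pooled from 2 mice, with red cells removed and without a sort. Inhibitors of transcription and of purinergic signalling were present in both preparations. No sham animals of day 14 are used here. The tissue and its preparation changed together in every library, so that what is due to the one or the other cannot be told apart. Each library was read by Drop-seq, a droplet method that counts the 3' ends of transcripts cell by cell. Counts were summed over the T cells of each library, and the libraries, not the cells, are the replicates.

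T cells leave the thymus as naive cells that circulate between blood and lymphoid organs. CCR7 lets them enter lymph nodes, and the receptor for sphingosine 1-phosphate lets them leave again. A program that includes the transcription factors KLF2, LEF1 and TCF1 keeps up this state. After an encounter with antigen, T cells lose much of that program and gain receptors for costimulation, cytokines and the ability to kill. Some settle in tissues, where CD69, CXCR6 and RGS1 are among the transcripts that mark them. The healthy brain holds few T cells, and after a stroke T cells of several kinds, among them regulatory T cells, accumulate in the injured hemisphere over weeks.

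The T cell sums held between 59796 and 215859 counts in the brain libraries and between 518677 and 614745 in the blood libraries. The median count per T cell was 1055, 680, 889 and 359 in brain and 474, 687 and 519 in blood (two-sided exact permutation test, p = 0.4, where 0.0571 is the smallest p that 4 against 3 libraries allow). Brain replicates 1 and 2 stood apart from the other 5 libraries in that almost no mitochondrial ribosomal RNA was counted in them (0.0186% and 0.00558% of counts, against 1.46% to 3.31%). A model with this kind of library as a term called 293 of 3839 genes, against 307 without it. The 5 other libraries alone called 426, out of 6964 genes that passed the filter there. At most 3 cell barcodes were shared by any 2 of the 7 libraries.

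The labelled T cells led in the T cell markers, but cell labels are made from the same expression values, so this is a description. Cd3e, a chain of the T cell receptor complex, stood at 465 CPM (counts per 1000000 counts, here over all cells of the label in a tissue) in the brain T cells and at 389 in the blood T cells. The mean over 10 T cell markers was 823 CPM in the brain T cells and 872 in the blood T cells. The next highest type was at 388 in brain (29 cells labelled MaC, with Cd3e at 355) and at 262 in blood (NK cells). All 10 markers were detected in the T cells of both tissues, as they were in some other types. A small sub-label went against the name: the 39 brain cells with the code Tc6, in replicates 2 to 4, held Cd3e at 68.0 CPM and Trac, the constant region of the receptor's alpha chain, at 272 CPM, but Il1rl1, the receptor for interleukin 33, at 1192 CPM. Values without these cells are given below for some lists and genes, and other counts may move without them as well.

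Of 3839 genes tested, 307 (8.00%) differed between brain and blood T cells in edgeR's quasi-likelihood test at a Benjamini-Hochberg adjusted p under 0.05; here "called" means past this threshold. Of these, 220 (5.73%) were higher and 87 (2.27%) lower in brain, and the median log2 fold change over all genes was 0.07. The libraries of the 2 tissues did not overlap for 855 genes (22.3%). Without the scaling by trimmed means, 250 of 291 called genes were higher (85.9%, against 71.7% with it), and the median over all genes rose to 0.22, so fold changes of this size are not read here. The count of calls rested on the few blood libraries: it was 109, 100 and 86 without blood replicates 1, 2 and 3, and 190 without brain replicate 3. Fold changes are brain over blood on the log2 scale with standard errors, and levels are scaled CPM of each library's T cells in the order of the replicate numbers. In bulk sums of this kind, fewer cells with a transcript and less of it per cell cannot be told apart. Free RNA of other cells also enters droplets. It was not modelled, and genes that another cell type of the same libraries held at more than 5 times the T cell level, in the tissue where the gene was higher, are named as such below.

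For the genes of T cell identity no difference between the tissues was called. Of 19 genes of the receptor complex and its proximal signalling, 19 were tested and 0 were called (8.00% of all genes were). Their median log2 fold change was 0.01 and lay between -0.19 and 0.20 under the alternatives. The members went both ways, from Bcl11b (-0.68 ± 0.23, adjusted p = 0.116) to Cd5 (0.65 ± 0.28, adjusted p = 0.218), and DESeq2 called Trbc2, a constant region of the receptor's beta chain, lower (-0.45, adjusted p = 0.0396). A gene that was not called is not thereby shown to be at the same level. Cd3e stood at 540.3, 624.9, 478 and 448 in the brain libraries and 524, 446 and 423 in blood (0.17 ± 0.19, adjusted p = 0.67), and the libraries of the 2 tissues overlapped. Trac stood at 1938, 1098, 1593 and 1329.5 in the brain libraries and 1439, 1335 and 1426 in blood (0.08 ± 0.23, adjusted p = 0.883). Of 8 genes of the CD4 and CD8 lineages 6 were tested and 0 called (8.00% of all genes were). Cd8b1, the beta chain of the CD8 coreceptor, was -1.43 ± 0.40 (adjusted p = 0.0639), and it was called lower without brain replicate 4 (adjusted p = 0.0289), without a filter on low counts (0.0404), with the replicate number as a block (0.0468) and with cells of at least 500 counts (0.0392), while Cd8a was -0.24 ± 0.23 and Cd4 was 0.31 ± 0.34. Of all Cd4, Cd8a and Cd8b1 counts, Cd4 made up 16.6%, 13.2%, 16.5% and 10.1% in the brain libraries and 5.74%, 3.47% and 9.86% in the blood libraries. The means were 14.1% ± 3.10 (SD, n = 4) and 6.36% ± 3.24 (SD, n = 3), and the tissues did not overlap (two-sided exact permutation test, p = 0.0571, the smallest p this design allows).

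The deposited sub-labels give a coarse view of what the brain T cells were. Their codes are separate in the 2 tissues and were not matched. In brain, Tc2 (217 cells) led in Cd8a at 735 CPM. Tc4 (83 cells) held Trdc, the constant region of the delta receptor chain, at 2626 CPM and 0 counts of Cd8a. Tc5 (94 cells) held 61.5% of the Foxp3 counts and 60.8% of the Ctla4 counts of the brain T cells in 11.02% of the cells. Tc7 (65 cells) held 71.0% of the Mki67 and 68.7% of the Top2a counts in 7.62% of the cells. Lef1, a gene of naive T cells, was low in all of them: it reached at most 209.9 CPM in any brain sub-label and was at least 437 CPM in every blood sub-label. These sub-labels were made from the same expression values, so their genes are given as a description only.

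The naive and recirculation program was lower in the brain T cells. Of 17 genes on this list 16 were tested, and 11 were called, all of them lower in brain (2.27% of all genes were). The median log2 fold change was -1.53. 5 of the 16 passed the filter on low counts through the blood libraries alone, among them the called Ccr7, Dapl1 and Igfbp4, so the count is a description. It was 7 of 16 without blood replicate 3. Lef1, which encodes a transcription factor of naive T cells, stood at 224, 169.9, 103 and 133 in the brain libraries and 1433, 1308 and 1469 in blood (-3.21 ± 0.26, adjusted p = 0.000579). Tcf7, which encodes its relative TCF1, stood at 130.4, 176, 131 and 217 in the brain libraries and 775, 722 and 660.0 in blood (-2.12 ± 0.23, adjusted p = 0.00104). In both of these the highest brain library lay far below the lowest blood library. Ccr7, the chemokine receptor for lymph node entry, stood at 18.6, 54.6, 93.7 and 35 in the brain libraries and 556, 489.7 and 489.6 in blood (-3.18 ± 0.37, adjusted p = 0.00143). Klf2, the regulator that drives S1pr1, stood at 279, 376, 295 and 259 in the brain libraries and 819, 1083 and 1094 in blood (-1.71 ± 0.21, adjusted p = 0.00162). Dapl1, abundant in naive CD8 T cells, showed the lowest fold change of all named genes and stood at 0, 54.6, 32.8 and 28 in the brain libraries and 903, 1054 and 718 in blood (-4.72 ± 0.43, adjusted p = 0.00062). Klf3 and Igfbp4 also fell, by 2.18 and by 3.76 on the log2 scale. These calls held in every fit that left out a library.

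Other members of the program moved less. Il7r, the receptor chain for the survival cytokine interleukin 7, stood at 727, 716, 839 and 819 in the brain libraries and 1403, 1217 and 1460.2 in blood (-0.81 ± 0.17, adjusted p = 0.0268). S1pr1, the egress receptor, stood at 130.4, 97.1, 149.9 and 112 in the brain libraries and 320.3, 274 and 211 in blood (-1.13 ± 0.25, adjusted p = 0.0301). For both genes the tissues did not overlap, but the call was kept in only 1 of 7 fits that left out a library, the one without brain replicate 3, with adjusted p up to 0.122 and 0.113. The call of Foxp1 ended without brain replicate 3 or each blood library in turn (up to 0.101), and that of Satb1 without blood replicate 3 (0.0665). 5 members were not called. Txk (-1.26 ± 0.33), Cd55 (-1.35 ± 0.54), Ly6c1 (-0.57 ± 0.83) and Ets1 (-0.61 ± 0.24) had negative fold changes. Ly6c2, a surface protein that memory CD8 T cells also carry, was the 1 tested member with a positive one (0.82 ± 0.23, adjusted p = 0.0655), and it was called higher without scaling by trimmed means (adjusted p = 0.026) and with DESeq2 (adjusted p = 0.0489). Bach2, a repressor that holds back effector differentiation, was too low to test, with 4 counts in brain against 77 in blood.

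**Figure D1:**
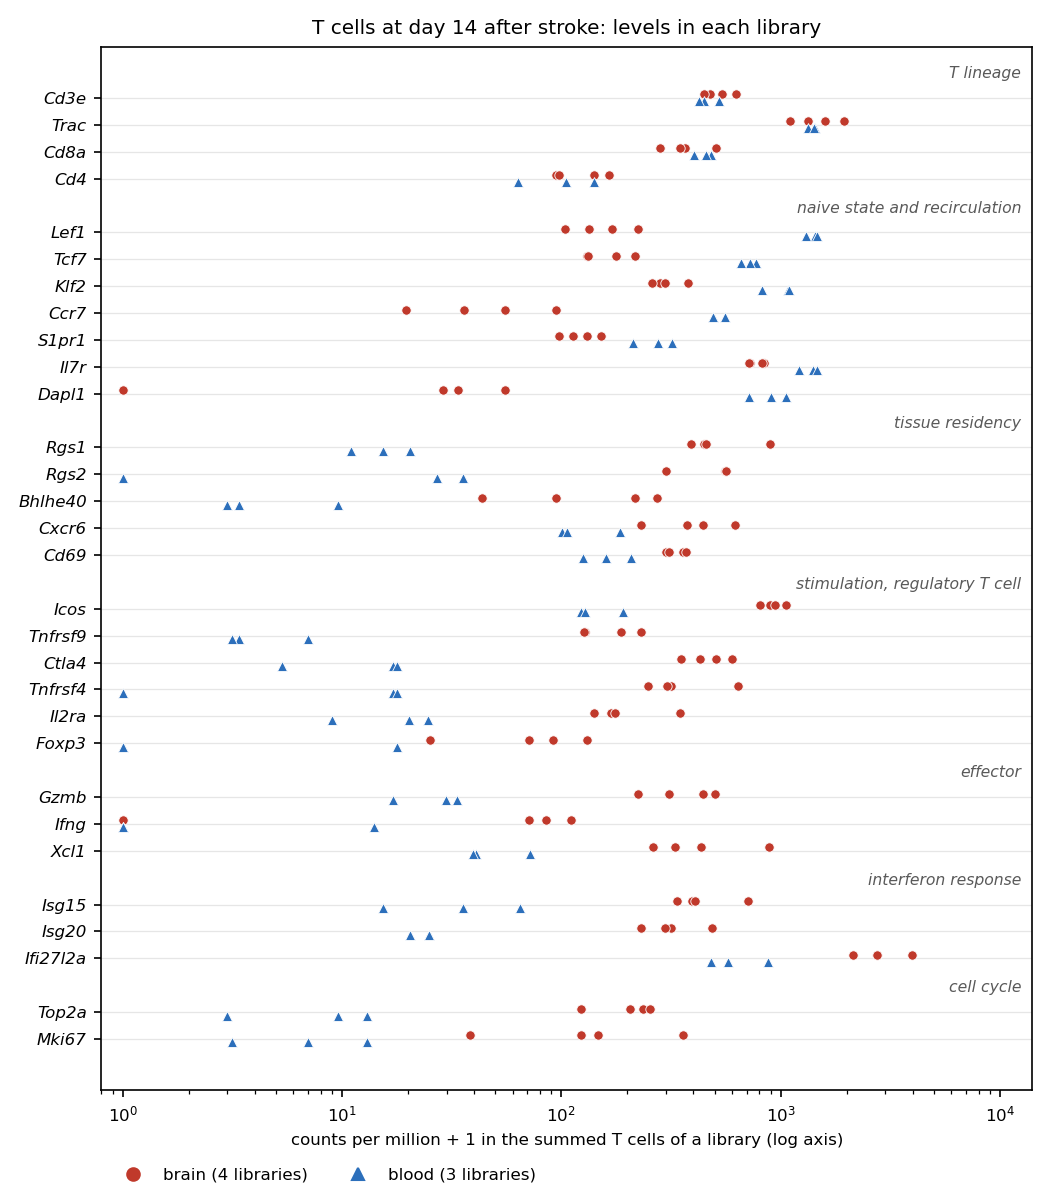
Level of 30 genes in the summed T cells of each library at day 14 after stroke, on a log axis of scaled CPM plus 1 (red circles, 4 brain libraries; blue triangles, 3 blood libraries). The tissues overlap for Cd3e, Trac, Cd8a and Cd4, while the naive genes lie to the left in brain and the residency, stimulation, interferon and cell cycle genes lie to the right in brain, with Ifng the exception where a brain library is at 0.

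Transcripts linked to residence in tissues were higher in brain. Of 18 genes on the list 8 were tested, and 7 of these were called higher (5.73% of all genes were), with a median log2 fold change of 3.63. Of the 8, 5 passed the filter through the brain libraries alone, so the count is a description. It was 3 of 10 without blood replicate 1, 4 of 10 without blood replicate 2 or 3 and 4 of 11 without brain replicate 3. Rgs1, an inhibitor of chemokine receptor signalling, stood at 447, 892, 389 and 455 in the brain libraries and 10, 14.4 and 19.4 in blood (5.19 ± 0.43, adjusted p = 0.000579). Rgs2, of the same family, stood at 298, 558, 562 and 559.8 in the brain libraries and 26, 0 and 34.5 in blood (4.58 ± 0.73, adjusted p = 0.00572). Bhlhe40, a transcription factor of resident T cells, stood at 93.2, 42.5, 272 and 217 in the brain libraries and 2, 2.40 and 8.63 in blood (5.10 ± 0.78, adjusted p = 0.00486). The brain libraries lay above all blood libraries for each of the 3 genes, and without blood replicate 1 the last 2 calls were lost at adjusted p = 0.0564 and 0.0523. Cxcr6, the receptor for the chemokine CXCL16, stood at 373, 443, 618 and 231 in the brain libraries and 100.1, 106 and 183 in blood (1.69 ± 0.38, adjusted p = 0.0297). Cd69, which holds back egress by binding the sphingosine receptor, stood at 298, 309, 356 and 371 in the brain libraries and 206, 158 and 125 in blood (1.04 ± 0.24, adjusted p = 0.0333). The calls of these 2 genes were lost without brain replicate 1, brain replicate 3 or each blood library in turn, and that of Cd69 also without brain replicate 4 (adjusted p up to 0.196 and 0.268). Itgae, the integrin chain CD103 of resident cells in epithelia, was too low to test, with 27 counts in brain and 52 in blood (45.3 and 38.0 CPM). Prdm1 had 12 counts in each tissue, which is 16.7 CPM in brain and 8.56 CPM in blood. Crtam, also too low to test, went the other way, at 24.9 and 45.8 CPM.

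Receptors that guide T cells to inflamed tissue were higher in part. Ccr2, the receptor for monocyte chemoattractant proteins, stood at 429, 637, 478 and 553 in the brain libraries and 88.1, 79.2 and 142 in blood (2.35 ± 0.28, adjusted p = 0.0016). Cxcr3 was 1.15 ± 0.32 (adjusted p = 0.0617) and was not called. Of 17 chemokine and sphingosine receptors 8 were tested, 2 called higher (Ccr2 and Cxcr6; 5.73% of all genes were) and 2 lower (Ccr7 and S1pr1; 2.27% of all genes were). Without brain replicate 1 it was 1 higher and 1 lower of 9. Among 10 adhesion genes tested of 16, Itgb1, the beta 1 integrin chain, stood at 1006, 1007, 1059 and 1288 in the brain libraries and 354, 216 and 321 in blood (1.87 ± 0.23, adjusted p = 0.00172). Cd44, the hyaluronan receptor of antigen-experienced T cells, stood at 186, 133, 183 and 161 in the brain libraries and 48, 33.6 and 47.5 in blood (1.92 ± 0.26, adjusted p = 0.00253), with granulocytes of the same libraries at 6.05 times the T cell level. Both were called higher in brain (5.73% of all genes were), and 8 others, among them Itga4 and Itgal, were not called.

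Genes of antigen receptor stimulation and costimulation were higher in the brain T cells. Of 18 genes 15 were tested and 14 called higher (5.73% of all genes were), with a median log2 fold change of 2.24. 10 of the 15 passed the filter through brain alone, so the count is a description. It was 8 of 16 without blood replicate 1 and 9 of 16 without blood replicate 2 or 3. Icos, a costimulatory receptor, stood at 1062, 801, 890.2 and 945 in the brain libraries and 122, 127 and 189.8 in blood (2.65 ± 0.24, adjusted p = 0.00062). Tnfrsf9, which encodes the costimulatory receptor 4-1BB, stood at 186, 127, 229.6 and 126 in the brain libraries and 6, 2.40 and 2.16 in blood (5.37 ± 0.45, adjusted p = 0.000579). Tnfrsf18, which encodes GITR, stood at 354, 339.8, 651 and 343 in the brain libraries and 78.1, 106 and 86.3 in blood (2.24 ± 0.31, adjusted p = 0.00288). Tnfaip3, a feedback inhibitor of NF-kB, stood at 261, 206, 375 and 279.9 in the brain libraries and 16, 2.40 and 21.6 in blood (4.33 ± 0.51, adjusted p = 0.00144). None of these values overlapped between the tissues, and the 4 calls held in every fit that left out a library.

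Nr4a1, an orphan nuclear receptor that T cells switch on within a short time of receptor signalling, had the highest fold change of the named genes. It stood at 37.3, 176, 422 and 182 in the brain libraries and 2, 2.40 and 0 in blood (6.86 ± 0.88, adjusted p = 0.0019). The blood T cells held 2 counts of it in all, against 147 in brain, and the ratio of the pooled counts was 197 with a 95% exact interval from 53.7 to 1646 that covers counting error only. Other early response genes rose with it: of 16 tested of 20, 8 were called higher (5.73% of all genes were) and 0 lower. 5 of these 8 (Fos, Fosb, Jun, Dusp1 and Zfp36) had passed the filter through brain alone, so the count is a description, while Junb, Jund and Ier2 passed in both tissues. The count was 4 of 16 without blood replicate 2, 3 of 16 without blood replicate 3 and 5 of 15 without the Tc6 cells, where Jund and Zfp36 lost their calls (adjusted p = 0.0617 and 0.0531) and Fosb was too low to test. Junb, a subunit of the AP-1 factor, stood at 969, 1135, 1757 and 945 in the brain libraries and 136, 72 and 84.1 in blood (3.62 ± 0.34, adjusted p = 0.000694). Dusp1, a phosphatase that shuts down MAP kinases, was 5.18 ± 0.66, adjusted p = 0.00187, and Fos was 3.59 ± 0.64, adjusted p = 0.0102, a call lost without blood replicate 3 (adjusted p = 0.0956). Dusp1 and Fos are among the transcripts of other cells in these libraries: granulocytes held Dusp1 at 10.6 times and border-associated macrophages held Fos at 29.9 times the T cell level. Such genes are known to be induced by tissue digestion, which only the brain cells went through, and the part of the digestion cannot be told apart from that of the tissue. The heat shock genes Hspa1a and Hspa1b, with 19 and 20 counts in brain and 0 in blood, were too low to test.

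The promoter of Nr4a1 is shown because it is the gene with the highest fold change of the named genes. TGACG is a core of the cyclic AMP response element, through which several early response genes are known to be switched on. The 250 bases before its start, chr15:101266596-101266845 on the plus strand of GRCm38.p6 from RefSeq, are printed 5' to 3' with the matches to TGACG on either strand in capitals.
Nr4a1: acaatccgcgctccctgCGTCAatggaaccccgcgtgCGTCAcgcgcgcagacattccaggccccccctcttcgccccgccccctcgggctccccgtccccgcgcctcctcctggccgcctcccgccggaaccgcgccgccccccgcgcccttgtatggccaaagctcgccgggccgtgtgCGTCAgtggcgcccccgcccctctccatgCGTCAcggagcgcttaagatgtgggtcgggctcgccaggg
The window held 4 matches. In windows from 250 bases before to 50 after the start, TGACG was found in 7 of 14 early response genes with a promoter in the table, in 40.1% of the tested genes and in 23.05% of all 27025 genes. The share in the early response genes is thus near that of the tested genes.

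The list of regulatory T cell genes was higher in brain. Of 13 genes 10 were tested and 9 called higher (5.73% of all genes were). 9 of the 10 had passed the filter through brain alone, so the count is a description, and it was 6 of 10 without blood replicate 1 or 3 and 6 of 8 without brain replicate 4. Ctla4, the inhibitory receptor that regulatory T cells carry at high levels, stood at 596, 352, 506 and 427 in the brain libraries and 16, 16.8 and 4.31 in blood (5.19 ± 0.44, adjusted p = 0.000579). Tnfrsf4, which encodes OX40, stood at 317, 249, 637 and 301 in the brain libraries and 16, 16.8 and 0 in blood (5.07 ± 0.73, adjusted p = 0.00333). Il2ra, the high-affinity chain of the interleukin 2 receptor, stood at 168, 139.5, 347 and 175 in the brain libraries and 8.01, 19.2 and 23.7 in blood (3.62 ± 0.47, adjusted p = 0.00203). Ikzf2, which encodes the factor Helios, stood at 224, 334, 244 and 203 in the brain libraries and 36, 55.2 and 56.1 in blood (2.36 ± 0.29, adjusted p = 0.00162). These 4 genes did not overlap between the tissues and kept their call in every fit that left out a library, as did Capg. Foxp3, the lineage factor itself, stood at 130.4, 24.3, 70.3 and 91 in the brain libraries and 0, 16.8 and 0 in blood (3.67 ± 0.95, adjusted p = 0.0484). It rested on 39 counts in brain and 7 in blood, and its call was lost without blood replicate 1 or 3 (adjusted p up to 0.246). Several of these genes are also costimulatory receptors that activated T cells of other kinds express, and 3 of them (Il2ra, Tnfrsf4 and Tnfrsf18) stand on the stimulation list too. Without the 39 Tc6 cells, 278 genes were called, 8 of 9 tested genes of this list were higher, and Il1rl1, 3.84 ± 0.74 with them, was too low to test.

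Effector genes rose in part. Of 21 cytotoxic genes 15 were tested and 5 called higher (5.73% of all genes were). All 5 had passed the filter through the brain libraries alone, so the count is a description, and it was 1 of 17 without each of the blood libraries in turn. Gzmb, the protease granzyme B, stood at 224, 443, 501 and 308 in the brain libraries and 16, 28.8 and 32.4 in blood (3.86 ± 0.39, adjusted p = 0.000851), and no brain library came near the blood range. Its largest share in brain lay in sub-label Tc5, which led in Foxp3 and held Cd8a at 13.1 CPM. Tc5 held 34.8% of the Gzmb counts, at 1082 CPM. The Cd8a-high Tc2 held 30.1% at 398 CPM, and Tc3 held 20.8% at 484 CPM. These shares are a description, and the contrast with blood was not tested by sub-label. Fasl (1.93 ± 0.34) and Serpinb9 (1.92 ± 0.31), an inhibitor of granzyme B, were called in the full set but lost their calls without each of the blood libraries in turn (adjusted p up to 0.107 and 0.0976), and NK cells held Serpinb9 at 5.22 times and Klre1 at 8.70 times the T cell level. The same holds for Klre1 (1.76 ± 0.33) and Klrg1 (2.52 ± 0.61), which lost their calls without each of the blood libraries in turn (up to 0.121 and 0.255). The pore-forming protein gene Prf1 was -1.59 ± 0.52 (adjusted p = 0.109), Gzma was -0.91 ± 0.46 and Ccl5 was 0.48 ± 0.35. None of these 3 was called. Gzmk was too low to test, with 24 counts in brain against 3 in blood.

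Among cytokines and chemokines, 8 of 21 were tested and 4 called higher (5.73% of all genes were), and all 4 had passed the filter through brain alone. Xcl1, the chemokine for cross-presenting dendritic cells, stood at 261, 879.7, 328 and 434 in the brain libraries and 40, 38.4 and 71.2 in blood (3.26 ± 0.48, adjusted p = 0.00384), with brain NK cells at 5.57 times the T cell level. Ifng, the gene of interferon gamma, stood at 0, 109, 84.3 and 70 in the brain libraries and 0, 0 and 12.9 in blood (3.99 ± 0.93, adjusted p = 0.0339). It was at 0 in brain replicate 1 and in 2 blood libraries, so the tissues overlapped, and the call ended without each of the blood libraries in turn (up to 0.22). DESeq2 gave it an adjusted p of 0.115. Ccl4 and Cxcl10 were called too, at 4.41 ± 0.52 and 6.11 ± 0.64, but granulocytes held Ccl4 at 34.2 times and monocyte-derived cells held Cxcl10 at 5.03 times the T cell level. Cxcl10 had 2 counts in blood, and its ratio of pooled counts was 105 with a 95% interval from 28.1 to 881. Too low to test were Tnf (25 counts in brain against 7 in blood), Il2 (20 against 4), Ccl3 (32 against 3) and Tnfsf11, which encodes RANKL (35 against 0). Some genes stand in the brain table only and could not be compared. Among these the brain T cells held 135 counts of Areg, the growth factor amphiregulin of tissue regulatory T cells (10, 20, 81 and 24 by replicate). They held 99 of Il17a (0, 32, 67 and 0), 80 of Pdcd1, the checkpoint receptor PD-1 (2, 19, 49 and 10), and 59 of Nr4a2 (1, 18, 27 and 13). Replicate 3 was the highest for each. Areg is also a marker of group 2 innate lymphoid cells, and its counts without the Tc6 cells are not given here.

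Genes of the gamma delta lineage varied widely between brain libraries. Trdc stood at 37.3, 461, 483 and 175 in the brain libraries and 136, 88.8 and 64.7 in blood (1.65 ± 0.63, adjusted p = 0.161). Brain replicates 2 and 3 were high and replicate 1 was below all blood libraries. Cd163l1, a scavenger receptor of interleukin 17 producing gamma delta T cells, was at 0 in brain replicate 1 and 2.95 ± 0.88 (adjusted p = 0.0829). Of 13 genes 4 were tested, 3 of them passing the filter through brain alone, and Maf, 1 of these 3, was called higher (5.73% of all genes were). The count was 3 of 7 without brain replicate 1 and 4 of 8 without a filter on low counts. Maf stood at 391, 315, 272 and 154 in the brain libraries and 50, 28.8 and 43.1 in blood (2.75 ± 0.36, adjusted p = 0.00231).

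Interferon-stimulated genes were higher in brain for part of the list: of 23 genes 22 were tested, 11 called higher (5.73% of all genes were) and 0 lower, with a median log2 fold change of 1.17. 7 of the 11 (Isg15, Isg20, Ifit1, Ifit3, Stat2, Xaf1 and Rtp4) had passed the filter through brain alone, so the count is a description, while Bst2, Ifi27l2a, Zbp1 and Ly6a passed in both tissues. Of 23 genes, 6, 4 and 3 were called without blood replicates 1, 2 and 3 and 5 without brain replicate 3, and of 22 genes 7 without brain replicate 1. Isg15, a ubiquitin-like modifier, stood at 708, 394, 408 and 336 in the brain libraries and 64.1, 14.4 and 34.5 in blood (3.55 ± 0.49, adjusted p = 0.00288). Isg20, an exonuclease that degrades viral RNA, stood at 484, 315, 295 and 231 in the brain libraries and 24, 24 and 19.4 in blood (3.82 ± 0.33, adjusted p = 0.000579). Ifi27l2a stood at 2739, 2129.6, 3954 and 2757 in the brain libraries and 871, 576 and 479 in blood (2.17 ± 0.31, adjusted p = 0.00333). The tissues did not overlap for any of them. Ly6a, which encodes Sca-1, was 2.37 ± 0.32, adjusted p = 0.00253, with endothelial cells at 5.81 times the T cell level. The calls of Isg15, Isg20 and Ly6a held in every fit that left out a library, and that of Ifi27l2a was lost without blood replicate 3 (adjusted p = 0.053). Each of the other 7 (Ifit1, Ifit3, Bst2, Zbp1, Xaf1, Rtp4 and Stat2) lost its call without at least 1 blood library. Ifit1, for example, was 2.47 ± 0.50, with adjusted p up to 0.122 without brain replicate 3 or each blood library in turn. Ifngr1, a chain of the interferon gamma receptor, stood at 1062, 740.2, 1106 and 994 in the brain libraries and 318, 290.4 and 299.8 in blood (1.68 ± 0.20, adjusted p = 0.00162).

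The promoters of Isg15 and Ifit3 are shown because they hold the letters by which interferon-activated factors are known to bind. They are the 250 bases before the start on the gene's strand, 5' to 3', from RefSeq on GRCm38.p6: chr4:156200819-156201068 on the minus strand for Isg15 and chr19:34583279-34583528 on the plus strand for Ifit3. Capitals mark pairs of TTTC set 2 bases apart, on either strand, which overlap in Isg15.
Isg15: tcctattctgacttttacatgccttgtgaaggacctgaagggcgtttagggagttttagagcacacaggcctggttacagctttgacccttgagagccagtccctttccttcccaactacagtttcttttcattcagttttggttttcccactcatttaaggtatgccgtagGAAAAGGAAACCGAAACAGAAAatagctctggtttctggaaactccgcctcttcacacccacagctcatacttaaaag
Ifit3: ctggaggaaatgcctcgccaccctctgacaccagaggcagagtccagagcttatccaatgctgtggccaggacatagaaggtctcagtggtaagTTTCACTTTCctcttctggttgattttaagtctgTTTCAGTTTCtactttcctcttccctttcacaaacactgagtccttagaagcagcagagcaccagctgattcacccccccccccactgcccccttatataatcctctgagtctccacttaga
Such a pair stood in 9 of 17 interferon genes with a promoter in the table, in 5.30% of the tested genes and in 3.99% of all genes. Of these 9, 5 were called higher (Isg15, Ifit1, Ifit3, Bst2 and Stat2) and 4 were not (Ifi203, Igtp, Gbp2 and Gbp7). Of the 14 early response genes 0 held it.

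Cell cycle genes were higher in brain for part of the list. Of 14 genes 9 were tested and 5 called higher (5.73% of all genes were). 4 of these 5 (Mki67, Top2a, Stmn1 and Birc5) had passed the filter through brain alone, so the count is a description, and Hmgb2 passed in both tissues. It was 3 of 11 without blood replicate 1 or 3 and 8 of 13 without brain replicate 1. Hmgb2 lost its call without the Tc6 cells (adjusted p = 0.0617). Top2a, the topoisomerase of dividing cells, stood at 205, 121, 234 and 252 in the brain libraries and 2, 12 and 8.63 in blood (4.71 ± 0.49, adjusted p = 0.000947). Mki67, the proliferation marker Ki-67, stood at 37.3, 121, 145 and 357 in the brain libraries and 6, 12 and 2.16 in blood (4.64 ± 0.74, adjusted p = 0.00572), a call that was lost without blood replicate 1 or 3 (adjusted p up to 0.0665). Stmn1, a microtubule destabiliser, stood at 130.4, 109, 108 and 139.9 in the brain libraries and 20, 16.8 and 25.9 in blood (2.49 ± 0.28, adjusted p = 0.00129). For all 3 the lowest brain library lay above the highest blood library. The mitotic genes Birc5, Hmmr, Nusap1, Tpx2 and Tacc3 and the replication gene Pclaf stood among the 15 highest fold changes of the named genes, which leave out genes abundant in other cell types. Birc5, for example, stood at 93.2, 84.9, 178 and 112 in the brain libraries and 0, 4.80 and 0 in blood, and its pooled counts of 73 in brain and 2 in blood gave a ratio of 98.1 (95% interval 26.2 to 825). The corresponding ratios were 116 (19.7 to 4668) for Hmmr and for Nusap1, 48.4 (12.5 to 415) for Tpx2 and 42.99 (10.97 to 370.3) for Tacc3. The call of Tacc3 was lost without blood replicate 3 (adjusted p = 0.056). Only 4 of the fits that left out a library tested Tacc3, and 3 of these called it.

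A list of S100, annexin, galectin and cytoskeleton genes, several of which T cells gain as they become memory cells, was higher in part: 7 of 19 tested were called higher (S100a4, S100a6, S100a10, S100a11, Anxa2, Lgals1 and Lgals3; 5.73% of all genes were) and 0 lower, and 18 of the 19 had passed the filter in both tissues. The count was 4 without blood replicate 2 and 3 without blood replicate 3, and S100a10 lost its call without the Tc6 cells (adjusted p = 0.0531). Lgals3 passed through brain alone, and monocyte-derived cells held it at 26.9 times the T cell level. S100a6 stood at 1546, 1232, 1466 and 812 in the brain libraries and 224, 197 and 185 in blood (2.64 ± 0.27, adjusted p = 0.000851). S100a4 stood at 1397, 758, 1021 and 588 in the brain libraries and 206, 93.6 and 104 in blood (2.78 ± 0.40, adjusted p = 0.00333), a call lost without blood replicate 3 (adjusted p = 0.0516). S100a11 was 1.74 ± 0.19, with granulocytes at 5.48 times the T cell level. Other lists held few calls (8.00% of all genes were called). Of 9 glycolysis genes tested 0 were called, with a median log2 fold change of 0.67. Of 13 genes of MHC class I presentation, all with a positive fold change and a median of 0.61, H2-T22 alone was called, and of 8 GIMAP genes Gimap7 alone, at 1.23 ± 0.28, and both lost their calls without each of the blood libraries in turn.

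Cytokine receptors went both ways. Of 23, 18 were tested, 5 called higher (5.73% of all genes were) and 4 lower (2.27%). Without each of the blood libraries in turn 2 were called higher and 1 lower of 19. Without the Tc6 cells it was 3 and 4 of 16, with Il10ra not called (adjusted p = 0.0665) and Il1rl1 too low to test. 3 of the 5 (Il2ra, Il10ra and Il1rl1) had passed the filter through brain alone and 3 of the 4 (Il6ra, Il6st and Il17ra) through blood alone. Il6ra, the receptor chain for interleukin 6, stood at 18.6, 36.4, 46.9 and 0 in the brain libraries and 256, 283 and 313 in blood (-3.31 ± 0.53, adjusted p = 0.00627), and its call held in every fit that left out a library. Il2rb, Il10ra and Il1rl1 were called higher beside Ifngr1 and Il2ra, but each kept its call in only 1 fit that left out a library. Il6st and Il17ra were lower beside Il7r and Il6ra, and each lost its call without each of the blood libraries in turn.

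The remaining genes with the most extreme fold changes had no list of their own. Snord13, a small nucleolar RNA, stood at 93.2, 443, 108 and 139.9 in the brain libraries and 8.01, 0 and 0 in blood (5.95 ± 0.94, adjusted p = 0.00572), with brain replicate 2 far above the others and the call lost without blood replicate 3 (adjusted p = 0.053). Bcl2a1d, of the family of cell death inhibitors, stood at 149, 127, 164 and 105 in the brain libraries and 8.01, 0 and 4.31 in blood (4.84 ± 0.52, adjusted p = 0.00104). Its paralogues are near-identical, so the reads may be split between them. Dtx1, a Notch pathway ubiquitin ligase linked to T cell anergy, stood at 0, 12.1, 4.69 and 0 in the brain libraries and 92.1, 106 and 125 in blood, with 3 counts in brain and a ratio of pooled counts of 0.0545 (95% interval 0.0111 to 0.162). Actn1, an actin crosslinker, was -2.67 ± 0.34, adjusted p = 0.0018, Rflnb was -3.05 ± 0.35, adjusted p = 0.00143 and Nsg2 was -2.37 ± 0.33, adjusted p = 0.00286. Tmem108, with 2 counts in brain, had a pooled ratio of 0.0507 (0.00606 to 0.188), and its call was lost without blood replicate 2 (adjusted p = 0.0555). Zfp553, F2rl1, Scml4 and Atp1b1 were lower as well, at -2.85 ± 0.59, -2.70 ± 0.58, -2.60 ± 0.65 and -2.58 ± 0.53, and each lost its call without each of the blood libraries in turn. Of the genes lower in brain T cells, some stood higher in other cells of the brain libraries. B cells held Ccr7 at 13.8, Tmem108 at 12.01, Dtx1 at 7.94 and Zfp553 at 6.01 times the brain T cell level. Granulocytes held Il6ra at 13.8 times, endothelial cells Rflnb at 11.5 times, NK cells Atp1b1 at 10.01 times and border-associated macrophages Igfbp4 at 9.77 times that level.

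**Figure D2:**
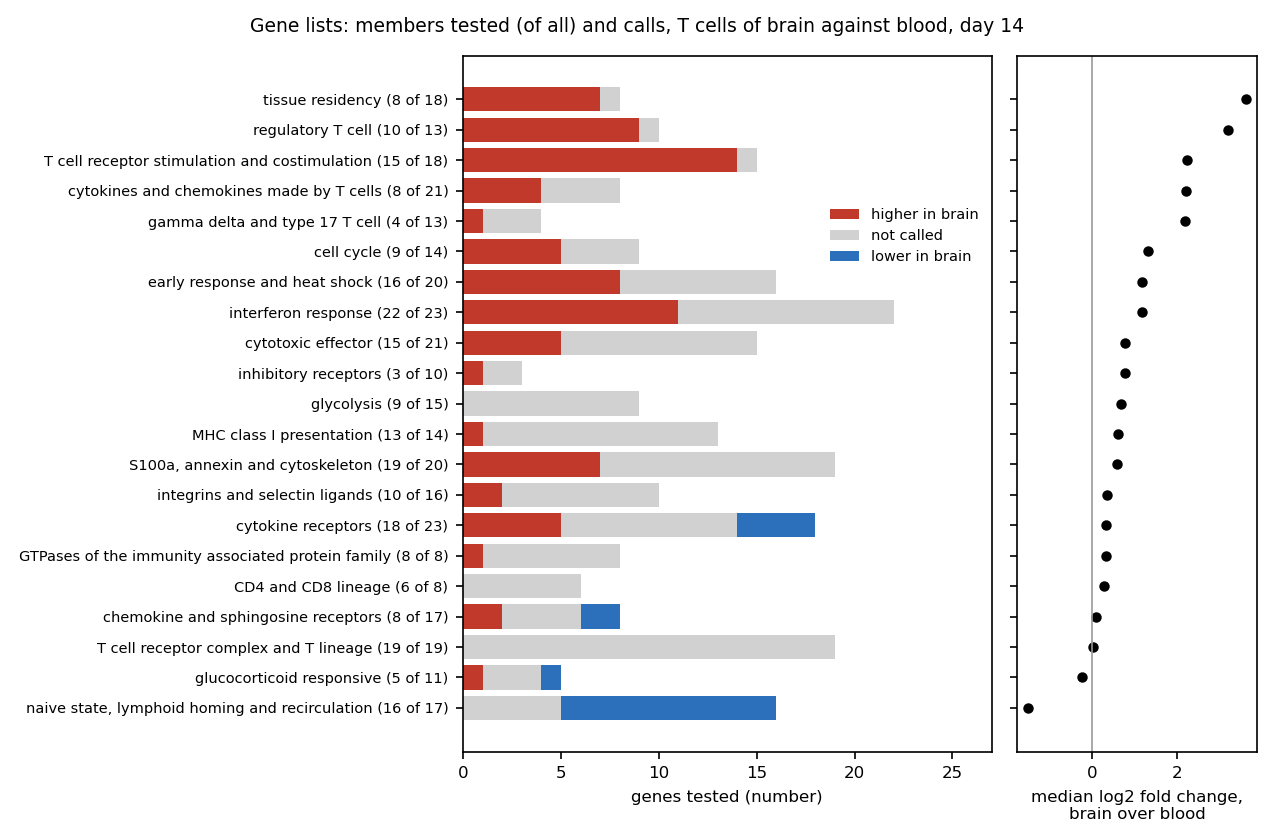
Calls within each gene list for brain against blood T cells at day 14 (left, stacked numbers of tested genes called higher, not called or called lower, with tested of all members in the labels) and the median log2 fold change of the tested members (right). The naive list holds 11 lower calls, the residency, regulatory and stimulation lists hold 7, 9 and 14 higher calls, and the receptor complex list holds 0 of 19. Of all genes tested, 8.00% were called.

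Markers of other cell types were carried by the T cell sums to different degrees. Over all genes tested, 5.73% were called higher and 2.27% lower. The summed level of 12 monocyte and macrophage markers was 2701, 1650.3, 811 and 917 CPM in the brain libraries and 211 to 324 CPM in the blood libraries, with 2 of the 12 at 0 in all libraries and Ccr2 the member called higher. Apoe was at 1863 and 576 CPM in brain replicates 1 and 2 and at 0 in replicates 3 and 4. The summed level of 10 microglia markers in both tables was 708, 589, 159 and 168 CPM in the brain libraries and 242 to 350 CPM in blood, with 0 of 1 tested called. NK cell markers summed to 447 to 1013 CPM in brain and 473 to 578 CPM in blood, and 0 of 4 tested were called. Neutrophil markers summed to 7 to 74.5 CPM in brain and 10 to 26.4 CPM in blood, with 4 of 10 at 0 throughout. Of 5 markers of group 2 innate lymphoid cells in both tables, 4 were tested and 3 called higher (5.73% of all genes were): Il1rl1, Rora (2.11 ± 0.42) and Klrg1, all of which T cells are known to express too. Without the Tc6 cells Il1rl1 was too low to test, and Rora (1.95, adjusted p = 0.0392) and Klrg1 (2.49, adjusted p = 0.0442) were still called. Their sum was 205, 449, 712 and 679 CPM in the brain libraries and 127 to 147 CPM in blood, without overlap. The 10 dendritic cell markers summed to 115 to 351 CPM in brain and 64.1 to 73.3 CPM in blood, also without overlap, with 0 of 1 tested called, and the class II gene H2-Aa was at 0 in all blood libraries and in brain replicate 2. Erythroid markers were at 0 in blood and at 0 to 158 CPM in brain. Sums of B cell, endothelial and neural markers overlapped between the tissues, with 0 of their 5 tested genes called, and platelet markers reached 2 CPM in 1 blood library and were at 0 in the others. The part of such RNA in the calls was not tested directly. With T cells that held a count of any of 21 defining markers of other types left out, 244 genes were called. In a wider filter, T cells with a count of any microglia, monocyte and macrophage, neutrophil, B cell, endothelial, platelet or erythroid marker were left out. Brain replicate 1 then kept 2 cells and was dropped, and 115 genes were called. The NK, dendritic, innate lymphoid and neural lists were not used in it. The lists used hold Ccr2, Plac8 and Ctss, which the T cell sums of all libraries of both tissues held, so this count does not measure RNA of other cells alone.

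The same contrast was available in sham animals and at day 2 after stroke, in libraries that day 14 does not share. The sham brain libraries are small, with 43 to 70 T cells each. Mitochondrial ribosomal RNA was almost absent from sham brain replicate 1 and day 2 brain replicates 1 and 2 too (0.00191%, 0.0535% and 0.000716% of counts). No blood library was of this kind, and the fit over the conditions held no term for it. Of 5099 genes, 191 (3.75%) differed between brain and blood T cells in sham and 335 (6.57%) at day 2 after stroke. Of the genes called at day 14 and tested there, 301 in number, 90 (29.9%) were also called in sham, which is 47.1% of the calls in sham, and 270 had the same sign. At day 2 the numbers were 164 (54.5%), 49.0% and 290. The naive program was lower in brain in each: 10 of 17 genes were called lower in sham (1.90% of all genes were) and 11 of 17 at day 2 (3.18%). Lef1 was -2.49 ± 0.35 in sham, -3.02 ± 0.38 at day 2 and -3.21 ± 0.26 at day 14. Of 16 stimulation genes tested, 8 were called higher in sham (1.84% of all genes were) and 10 at day 2 (3.39%). Rgs1 was 4.28 ± 0.43, 4.02 ± 0.43 and 5.19 ± 0.43. Icos was 2.00 ± 0.32, 3.03 ± 0.31 and 2.65 ± 0.24. The contrast of these 3 genes thus had the same sign in sham animals.

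Other genes stood at different contrasts by point estimate. Of 22 interferon genes 1 was called higher (1.84% of all genes were) and 1 lower (1.90%) in sham, with a median log2 fold change of -0.39, and 6 higher at day 2 (3.39%) with a median of 0.79. The medians over all genes were -0.33 in sham and -0.10 at day 2, so the interferon median in sham was near that of all genes. Ifi27l2a, in unscaled CPM, averaged 439.8 in sham brain (324 to 520.2 in 4 libraries), 787 in brain at day 2 and 2656 in brain at day 14 (1638 to 3946), while blood averaged 445, 363 and 531. Its contrast was -0.47 ± 0.41, 0.79 ± 0.39 and 2.17 ± 0.31. Ly6a followed the same order, at 0.38 ± 0.38, 2.15 ± 0.33 and 2.37 ± 0.32. Gzmb was highest at day 2, at 6.36 ± 0.66, against 3.02 ± 0.74 in sham. Of 12 cell cycle genes 0 were called in sham (3.75% of all genes were) and 5 at day 2 (6.57%). Of 10 regulatory T cell genes 4 were called higher in sham (1.84% of all genes were) and 7 at day 2 (3.39%), with Ctla4 at 4.77 ± 0.91 and 4.25 ± 0.66. Foxp3 itself had 0 counts in the brain T cells of sham and of day 2 in libraries of at least 20 T cells, where 3 counts over the group correspond to 31.3 and 20.5 CPM, against a mean of 72.6 CPM in day 14 brain (18.6 to 117). The difference of its contrast between day 14 and sham was not called (adjusted p = 0.773).

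The difference between the contrasts was tested directly. It was called for 1 gene of 5099 (0.0196%) between day 14 and sham, and for 0 between day 14 and day 2 (204 genes were under 0.05 before adjustment). Those 204 genes are a smaller share of the 5099 than the 0.05 that such p-values give where no gene differs. For Ifi27l2a the difference from sham was 2.61 ± 0.56 (adjusted p = 0.168) and for Ly6a 1.95 ± 0.48 (adjusted p = 0.254), so that neither passed. The median difference from sham over all genes was 0.35. The called gene was Cd5, a modulator of receptor signalling, at 8.51 (adjusted p = 0.00105). All 4 sham brain libraries had 0 counts of it, where 3 counts over the group correspond to 31.3 CPM, while sham blood stood at 82.2 to 147 CPM. The fitted value depends on the prior count and is no bound, and DESeq2 called 0 genes.

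**Figure D3:**
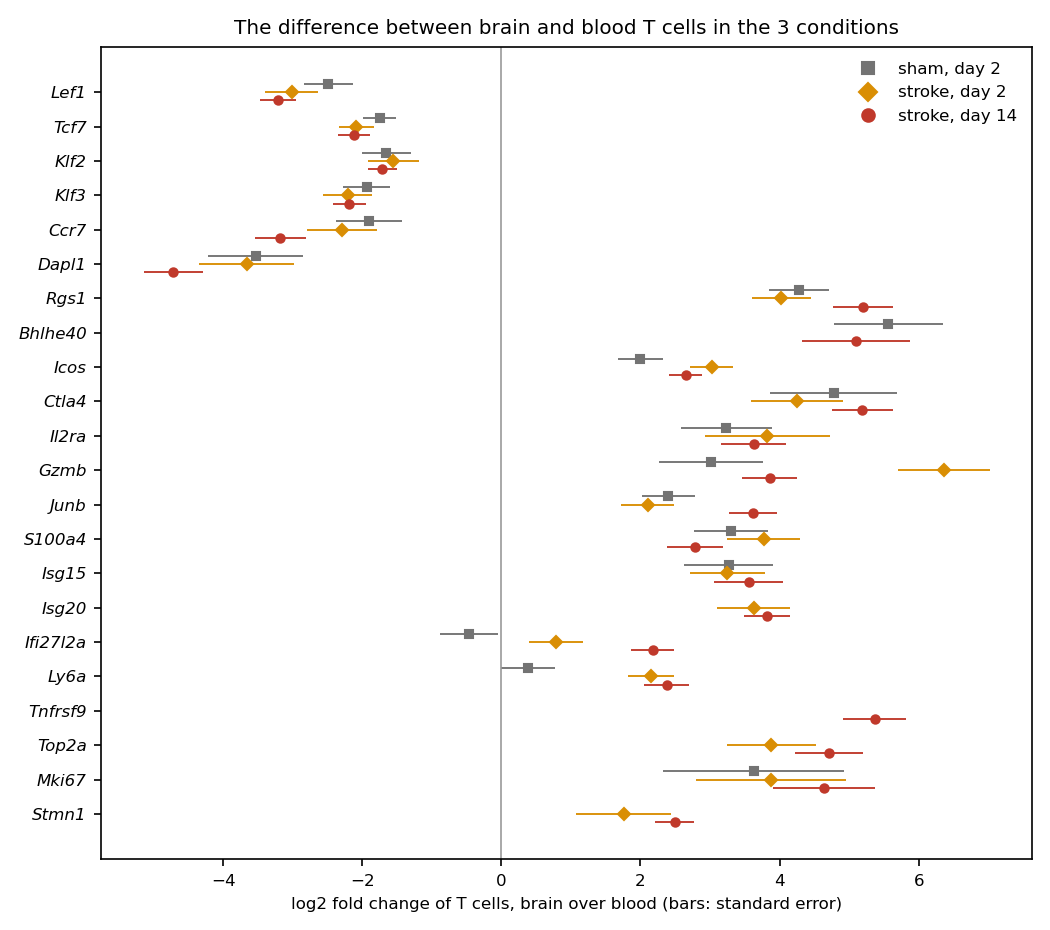
Log2 fold change of brain over blood T cells (horizontal axis, bars are standard errors) for 22 genes in sham at day 2 (grey squares), stroke at day 2 (yellow diamonds) and stroke at day 14 (red circles), each shown where both tissues held more than 3 counts. Naive genes lie left of 0 and Rgs1, Icos, Ctla4 and Junb right of 0 in every condition shown for them, and Ifi27l2a goes from -0.47 in sham to 2.17 at day 14.

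NK cells and B cells of the same libraries went through the same preparation and give a comparison within each library. Brain replicate 1 held 8 NK and 9 B cells and was left out of the NK and B cell fits and of the differences between types. The T cell values set beside them still include it. NK cells (341 in brain, 780 in blood) had 73 of 2259 genes called (3.23%), and B cells (132 and 6263) had 17 of 6202 (0.274%). Nr4a1 was higher in brain in all 3 types: 6.86 ± 0.88 in T cells, 6.33 ± 0.64 in NK cells, where blood held 1 count, and 6.11 ± 0.71 in B cells. Its difference between T and NK cells (0.55 ± 1.36, adjusted p = 0.86) and between T and B cells (1.27 ± 1.02, adjusted p = 0.67) was not called. Klf3 was -2.18 ± 0.24, -2.20 ± 0.35 and -2.05 ± 0.46, and Klf2 -1.71 ± 0.21, -1.35 ± 0.48 and -1.27 ± 0.37, again with no called difference between types. Of 8 residency genes tested in NK cells 7 were called higher (2.30% of all genes were), and 7 of 8 in T cells (5.73%). Without brain replicate 1, 5 of 11 residency genes tested were called higher in T cells, against 198 of all 5271 genes. Tested directly, 3 of 9 residency genes had a higher contrast in T than in NK cells (5.38% of all genes did) and 1 a lower one (7.71%). In B cells 1 of 5 residency genes tested was called higher (0.129% of all genes were), and of 10 naive genes tested 0 were called lower (0.145%). Of these 10 naive genes, 2 had a positive fold change in B cells, and their median was -1.15, against -0.35 over all genes. Rgs1 was 3.90 ± 0.43 in NK cells and differed between the types by 1.39 ± 0.48 (adjusted p = 0.043).

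The contrast differed between T and NK cells for 448 of 3423 genes (13.1%; 228 with DESeq2) and between T and B cells for 153 of 6547 (2.34%). Each tissue had 3 libraries here. The test drew each gene's spread largely from all genes, so the very small p-values below rest on that borrowed spread. Lef1 was -0.22 ± 0.32 in NK cells, and the difference between types was -3.20 ± 0.40, adjusted p = 9.46e-10. Tcf7 was 0.31 ± 0.41 in NK cells, with a difference of -2.41 ± 0.45, adjusted p = 2.09e-05. Ccr7 was 1.10 ± 0.31 in B cells, with a difference between T and B cells of -4.15 ± 0.40, adjusted p = 1.07e-21. Tnfrsf9 was 0.27 ± 0.48 in NK cells, with a difference of 5.03 ± 0.58, adjusted p = 3.79e-11. Gzmb was 0.37 ± 0.37 in NK cells, which held it in both tissues (327 counts in brain and 376 in blood), and the difference was 3.64 ± 0.27, adjusted p = 9.56e-19. S100a6 differed by 2.01 ± 0.22, adjusted p = 1.09e-11 from NK cells and by 3.58 ± 0.36, adjusted p = 1.54e-19 from B cells. Over the lists, 12 of 19 cytotoxic and 12 of 20 S100, annexin and cytoskeleton genes had a higher contrast in T than in NK cells (5.38% of all genes did). In NK cells alone, 4 of 19 cytotoxic genes were called lower in brain (0.930% of all genes were) and 0 higher, with a median of -0.40. The higher contrast of this list in T cells thus holds a fall in NK cells too. Of 16 stimulation genes, 6 had a higher contrast in T than in NK cells and 1 a lower one. Of 15 naive genes, 6 had a lower contrast in T than in NK cells (7.71% of all genes did) and 1 a higher one, while 2 of 15 early response genes had a higher one. Interferon genes differed in 1 of 19 upwards and 1 downwards from NK cells, and in 5 of 23 upwards from B cells (2.03% of all genes did).

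**Figure D4:**
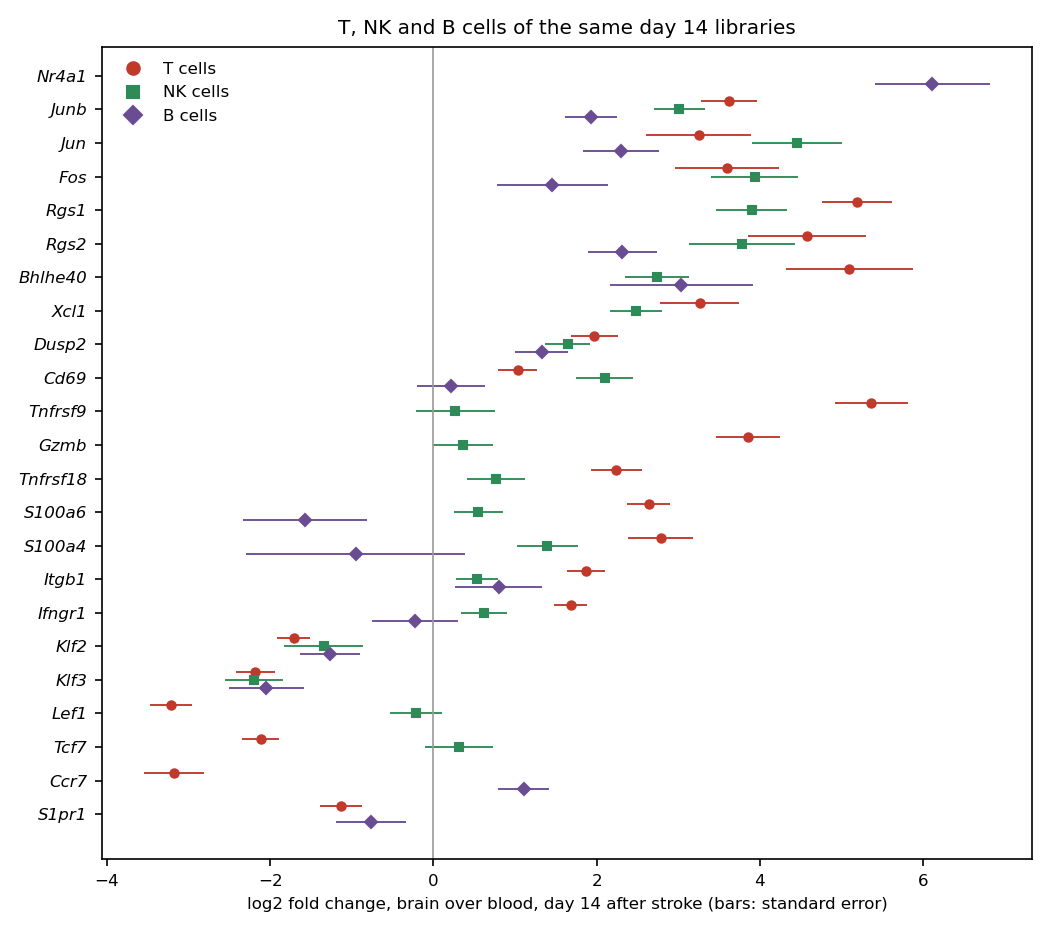
Log2 fold change of brain over blood (horizontal axis, bars are standard errors) for 23 genes in T cells (red circles), NK cells (green squares) and B cells (purple diamonds) of the day 14 libraries, each shown where both tissues held more than 3 counts. The T cell values include brain replicate 1, which the NK and B cell values leave out. The 3 types lie close together for Klf2 and Klf3, while T cells stand apart for Lef1, Tcf7, Ccr7, Tnfrsf9, Gzmb and S100a6.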

How the data were processed

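Drop-seq libraries of brain and blood cells were used, with groups, tissue and replicate from the labels and cell types from the deposited annotation. The values are expected counts: the authors deposited 1 table per library with values just below whole numbers, and the step that made them fractional is not given in the sources used here. Seurat and the build mm10 are named in the submitters' processing notes. The values were summed over the cells of a type in each library and rounded to whole counts before testing; these deposited counts carry no molecular spike-in. The percent of mitochondrial counts of each cell was deposited with the annotation, and how the authors made it is not stated. Its median over the T cells of a library averaged 1.88 ± 1.81 (SD, n = 4) in brain and 4.30 ± 0.52 (SD, n = 3) in blood (two-sided exact permutation test, p = 0.114). By brain replicate it was 0.519, 0.266, 2.69 and 4.05, and the 2 low values belong to the libraries with almost no mitochondrial ribosomal RNA counted. 0 columns belonged to other samples. Of 19704 genes in the brain and 16623 in the blood tables, 15730 stood in both and entered the filter.

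Genes passed edgeR's filterByExpr (minimum count 10) by group. Sums were scaled by trimmed means and tested with edgeR 4.0.16 in R 4.3.3 (quasi-likelihood, two-sided, Benjamini-Hochberg over all genes tested). DESeq2 1.42.0 was an alternative. The contrasts in sham and day 2 came from 1 fit over 6 groups (libraries of at least 20 T cells, which left out brain replicate 4 of day 2). Differences between T and NK or B cells came from a fit with the library as a block. Nothing in the labels says whether the replicates are separate animals beyond the pools, so p-values measure the spread between these libraries. In the fits of T against NK or B cells that spread was largely shared between genes, so very small p-values do not measure a single gene's own. Named genes were the 15 highest and 15 lowest fold changes of called genes that averaged 20 CPM or more, with no overlap of tissues and no other cell type (of at least 50 cells) above 5 times the T cell level in the tissue where the gene is higher, leaving out predicted, mitochondrial, ribosomal, haemoglobin, immunoglobulin, receptor segment and sex-linked genes, plus the members of the lists. A few genes are not reported here and were left out of the lists and of all counts over lists or named genes. Members and lists were chosen with earlier results of these data known, and each list is described by its counts, with no test of the list. The fit was tested on data simulated from these libraries, with the spread of each gene set by the trend over all genes. Of genes changed by 1 on the log2 scale 10.9% were recovered, against 91.7% at 2 and 100% at 3 and at 4. Of 156 calls 7 were false (4.49%). Most changes of the smallest size were thus missed. Scrublet marked 16 of 29060 cells and 0 T cells, has thus not worked here, and doublets were left in. Promoters were searched on both strands for 13 motifs: the pair of TTTC set 2 bases apart, a longer interferon response motif that overlaps it, the serum response element and the NF-kB site (all by name), TGACG and TGACGTCA of the cyclic AMP response element, TGANTCA of AP-1, TGTTTAC of FOXO factors, CACCC of KLF factors, GGAAAA of NFAT, CTTTGAT of TCF and LEF factors, TTTGAA of the cell cycle homology region and TTTCCCGC of E2F. TGACGTCA holds TGACG. A match is a description of letters, not a site.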

Additional observations from a re-analysis of the deposited data

Results flagged for a closer look

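Among the 32 groups of brain values examined, 4 held a library far from the other 3 by Dixon's criterion, which chance does for about 1 in 20. Brain replicate 2 was high for Snord13 (443 CPM), Rgs1 (892 CPM) and Actn1 (54.6 CPM), and brain replicate 3 for Tmem108 (9.37 CPM, the other 3 at 0). All but the Snord13 and Tmem108 calls held without the library in question and each of the others.

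The contrast of brain over blood was higher in T than in NK cells for Pclaf (4.52, adjusted p = 0.00549), Tnfrsf9 (5.03, adjusted p = 3.79e-11), Rgs1 (1.39, adjusted p = 0.043), Bhlhe40 (2.39, adjusted p = 0.00591) and Top2a (2.86, adjusted p = 0.0427), and lower for Lef1 (-3.20, adjusted p = 9.46e-10), Ccr7 (-3.57, adjusted p = 0.00405) and Atp1b1 (-1.39, adjusted p = 0.00705). Between T and B cells it was higher for Ctla4 (10.41, adjusted p = 5.18e-06) and Top2a (9.69, adjusted p = 0.00183), and lower for Il6ra (-3.52, adjusted p = 0.0123) and Ccr7 (-4.15, adjusted p = 1.07e-21). The brain B cells had 0 counts of Ctla4 and Top2a, so these 2 fitted values depend on the prior count and are no bounds. Between day 14 and sham T cells it was higher for Cd5 (8.51, adjusted p = 0.00105), again against 0 counts in the sham brain libraries.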

How the results depend on the processing

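Of the 29 named genes, 21 were called in every fit that left out a library, and of the 89 called list genes 40 were. No fold change of these 29 changed sign under any alternative. Of the called list genes, Jund turned to -0.06 with cells of Cd8a or Cd8b1 alone and Il7r to 0.30 with cells of Cd4 alone, and uncalled list genes near 0 changed sign as well. The count of calls at day 14 ranged from 86 to 279 without 1 library, and was 291 without scaling by trimmed means, 327 without a filter, 391 with DESeq2, 306 with values rounded up and 302 with cells of at least 500 counts. It was 115 with cells holding markers of some other types left out, 92 with cells of Cd8a or Cd8b1 alone and 38 with cells of Cd4 alone (3 and 2 brain libraries). The alternatives with a library kind as a term, its 5 libraries alone, 21 defining markers and the Tc6 cells were chosen after seeing the data. Replicate numbers are shared by the tissues. The deviations of same-numbered libraries correlated at -0.176, 0.497 and 0.000695, and pairs of different numbers were not computed. Whether same-numbered libraries share more than a number is therefore not settled. With the replicate block 156 genes were called at day 14. Without 1 library, calls ranged from 100 to 159 in sham, from 203 to 289 at day 2 and from 92 to 205 between T and B cells. DESeq2 called 228 genes between T and NK cells. The difference between day 14 and sham gave 5 genes without a filter and 0 with DESeq2. The causes were not tested, beyond fewer cells or libraries in the subsets. Removing doublets could not be run as planned, since the caller marked no T cell. Depth limits the small libraries: brain replicate 1 rests on 59796 counts of 50 cells.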
